A study of Mus musculus with 12 samples.

Results

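The genes described here encode the DNA replication machinery, and they were taken by gene symbol: 45 symbols were named, and all 45 were found among the 23284 gene symbols of the RNA-seq tables. They cover the factors that load and fire replication origins, the replicative helicase, the DNA polymerases, the sliding clamp and its loaders, the single-strand binding protein, the enzymes that join lagging-strand fragments, the histone chaperone that follows the fork and the proteins that stabilise it. All 45 passed the filter on low values used for testing.

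Replication is prepared in the G1 phase, when the origin recognition complex (ORC), Cdc6 and Cdt1 load the MCM2-7 helicase onto DNA. Geminin (Gmnn) blocks this licensing step by binding Cdt1. In S phase the kinase Cdc7, Mcm10 and the GINS complex turn the loaded helicase into a moving fork, where primase and polymerase alpha make primers that polymerases delta and epsilon extend on the sliding clamp PCNA. E2F factors drive many of these genes at the entry into S phase, and the transcription factor Myc is well known to promote cell cycle entry. The RNA levels of these genes are often read as a sign of how many cells in a culture are cycling.

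The cells were secondary 1B mouse embryonic fibroblasts, in which doxycycline (dox) switches on introduced reprogramming factors. They were transfected with an siRNA against Myc (siMyc), an siRNA against Gcn5 (siGcn5) or a control siRNA (siControl); Gcn5 is a histone acetyltransferase encoded by Kat2a. Each of these arms was collected without dox (day 0) or after 2 days with it, which made 6 groups. These were siMyc, siGcn5 and siControl with dox, and siMyc, siGcn5 and siControl without dox. The dox comparisons thus set day 2 against day 0, and dox and time cannot be told apart in them. Each group had 2 libraries of ribosomal RNA-depleted total RNA. All groups share the transgenic fibroblast background and an siRNA transfection. Myc is usually among the introduced factors, and the values do not separate introduced from endogenous Myc RNA. The labels mention siRNA pools and single siRNAs without tying either to these libraries. No label gives separate cultures for the replicates, so p-values cover the spread among these libraries alone, and that spread may be technical.

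Values are in RPKM (reads per kilobase of transcript, normalised to sequencing depth) as deposited by the authors, in the order replicate 1 and replicate 2. The depth, from whole reads recovered out of the steps in these values, was 65.4 to 188 M gene reads per library. Myc was at 16.9 and 26.2 RPKM in siMyc, 103 and 129 in siGcn5 and 174 and 155 in siControl with dox, against 4.57 and 4.80 in siMyc, 9.31 and 7.10 in siGcn5 and 21.7 and 17.6 RPKM in siControl without dox. The siMyc libraries were the lowest for Myc on either side of dox. Kat2a was at 18.1 and 19.4 RPKM in siMyc, 6.27 and 9.11 in siGcn5 and 55.7 and 53.1 in siControl with dox, against 17.6 and 16.5 in siMyc, 1.33 and 1.97 in siGcn5 and 23.0 and 20.7 RPKM in siControl without dox. The siGcn5 libraries were the lowest for Kat2a on either side of dox. Myc was also below siControl in every siGcn5 library, and Kat2a was below siControl in every siMyc library. These shifts passed the test except for Kat2a in siMyc without dox (limma, adjusted p = 0.129).

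Promoter windows from RefSeq (assembly GRCm38.p6, 250 bases before to 50 after each start) were found for 35 of the 45 genes. An E2F motif, searched on both strands as TTTCCCGC, TTTCGCGC, TTTGCCGC or TTTGGCGC, was in 14 of those 35 genes (40%), against 428 of the 9088 tested genes with a window (4.71%). The 14 genes were Cdc6, Cdca7, Cdt1, Gins3, Lig1, Mcm3, Mcm5, Mcm6, Mcm7, Pola1, Pold1, Pold3, Pole2 and Rfc3. The Myc-type E-box CACGTG was in 7 of 35 (20%), against 11.9% of the tested genes, and the CCAAT box (CCAAT on either strand), which does not overlap the letters of the others, was in 19 of 35 (54.3%), against 42.7%. The 7 genes with the E-box were Chaf1a, Fen1, Lig1, Orc4, Pola2, Rfc1 and Rpa1. A gene with several RefSeq starts was counted once if any of its windows held the motif. A match in these letters describes the window and is not evidence of binding. The 250 bases before the start are printed for 5 genes chosen after their values were seen. Cdca7, Pold2, Mcm5 and Mcm7 were among the 5 largest falls under siMyc with dox, and Orc4 was the gene not called there. The remaining gene of those 5, Mcm10, is not printed, and its window holds no E2F match. Another RefSeq start of Orc4, also not printed, has an E-box in its window. Capitals mark E2F motif matches, 5′ to 3′ on the strand of the gene, and where RefSeq lists several starts the first one is shown.

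Cdca7, chr2:72475969-72476218, plus strand: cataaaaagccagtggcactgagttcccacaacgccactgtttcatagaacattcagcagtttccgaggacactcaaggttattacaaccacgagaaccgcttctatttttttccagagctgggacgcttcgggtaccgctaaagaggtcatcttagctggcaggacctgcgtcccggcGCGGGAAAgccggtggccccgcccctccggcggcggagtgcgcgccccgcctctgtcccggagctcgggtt

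Mcm5, chr8:75109259-75109508, plus strand: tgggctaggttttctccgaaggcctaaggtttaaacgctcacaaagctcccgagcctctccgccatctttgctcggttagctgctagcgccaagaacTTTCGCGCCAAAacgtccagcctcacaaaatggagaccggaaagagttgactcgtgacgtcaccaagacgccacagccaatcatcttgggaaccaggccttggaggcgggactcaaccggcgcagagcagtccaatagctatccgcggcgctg

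Mcm7, chr5:138171884-138172133, minus strand: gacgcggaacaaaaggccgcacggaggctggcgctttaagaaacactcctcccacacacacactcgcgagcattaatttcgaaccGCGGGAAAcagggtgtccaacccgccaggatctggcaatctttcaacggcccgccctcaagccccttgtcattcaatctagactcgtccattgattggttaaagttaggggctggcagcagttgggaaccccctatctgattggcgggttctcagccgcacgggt

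Pold2, chr11:5878257-5878506, minus strand: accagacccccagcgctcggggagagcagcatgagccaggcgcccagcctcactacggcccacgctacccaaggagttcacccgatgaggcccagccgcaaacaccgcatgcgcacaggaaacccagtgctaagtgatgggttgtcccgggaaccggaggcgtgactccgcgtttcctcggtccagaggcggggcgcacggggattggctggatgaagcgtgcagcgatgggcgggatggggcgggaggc

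Orc4, chr2:48950082-48950331, minus strand: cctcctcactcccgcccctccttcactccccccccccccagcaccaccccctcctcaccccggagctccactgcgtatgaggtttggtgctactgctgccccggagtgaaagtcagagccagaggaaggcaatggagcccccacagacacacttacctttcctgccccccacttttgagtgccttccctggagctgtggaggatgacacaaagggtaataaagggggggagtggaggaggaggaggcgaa

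The printed Mcm5 stretch holds a pair of overlapping matches in 1 run, those of Cdca7 and Mcm7 hold 1 match each, and those of Pold2 and Orc4 hold none. The Mcm7 window holds another match just past the start, outside the printed stretch. Gins2, which stood apart in the dox comparisons, had no window in the table.

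With dox, the replication genes rose in siControl cells almost without exception. Of 45 genes, 44 were higher with dox (background over all 13175 genes tested: 46.1% higher), none was lower, and Gins2, a GINS subunit, was not called (log2 change 0.12, adjusted p = 0.439). The median log2 change was 1.21 over the 45 genes and 0.17 over all genes tested, and the median ratio of mean RPKM was 2.38. The largest rises were in Cdca7, a nuclear factor that works with the remodeller Hells (log2 change 2.20, SE 0.21, adjusted p = 5.73e-06), Pold2, the second subunit of polymerase delta (log2 change 2.00, SE 0.18, adjusted p = 3.94e-06), Mcm10 (log2 change 1.88, SE 0.29, adjusted p = 0.00017), the clamp loader subunit Rfc5 (log2 change 1.71, SE 0.24, adjusted p = 0.000106) and the helicase subunit Mcm5 (log2 change 1.69, SE 0.27, adjusted p = 0.000238). Log2 changes were computed from log2(RPKM + 1), so those of genes with low RPKM come out too small. Each adjusted p is limma's, adjusted over all genes tested, and genes were called under 0.05. With median-ratio or quantile scaling the median of the 45 genes was 1.06 or 1.00 and that of all genes 0.05 or 0.00. Orc4 and Rpa1 were not called under either of these scalings (adjusted p = 0.274 and 0.0677 with median ratios, 0.516 and 0.125 with quantiles), nor Dscc1 under quantiles (adjusted p = 0.0593). Leaving out a library in turn left 41 to 44 calls. Orc4 and Dscc1 lost theirs without siControl with dox replicate 2 (adjusted p = 0.154 and 0.0789) and without siControl without dox replicate 2. Rpa1 lost its call without siControl without dox replicate 2 and without siControl with dox replicate 1 (adjusted p up to 0.124), and Orc4 also without siControl without dox replicate 1.

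In siGcn5 cells, which started lower, most of the genes also rose with dox. Here 37 of 45 genes were higher with dox (background 36.0%), none was lower, and the median log2 change was 0.94 over the 45 genes and 0.08 over all genes. The largest rises were those of Cdca7 (log2 change 1.94, SE 0.21, adjusted p = 3.59e-05), Mcm5 (log2 change 1.83, SE 0.27, adjusted p = 0.000296), Mcm10 (log2 change 1.77, SE 0.29, adjusted p = 0.00052), Pold2 (log2 change 1.70, SE 0.18, adjusted p = 3.22e-05) and Mcm6 (log2 change 1.70, SE 0.18, adjusted p = 3.71e-05). Not called were 8 genes: Orc4, Gins2, Gins3, Pold3, Rfc3, Dscc1, Rpa1 and Rpa3, at log2 changes of 0.14, 0.14, 0.14, 0.17, 0.13, 0.36, 0.09 and 0.06. The count was 29 without siGcn5 without dox replicate 1 and 30 without siGcn5 with dox replicate 2. The 8 calls lost in at least 1 case were those of Chaf1b, Fen1, Gins4, Gmnn, Lig1, Pold1, Rfc2 and Rpa2, and Fen1, Gins4, Pold1, Rfc2 and Rpa2 also lost theirs under median-ratio or quantile scaling.

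In siMyc cells the rise was not seen. Only 1 of 45 genes was higher with dox (background 28.9%), the kinase gene Cdc7 (log2 change 0.46, SE 0.11, adjusted p = 0.00704). Another 2 were lower (background 15.9%): Rpa1, the large subunit of the single-strand binding protein (log2 change -0.61, SE 0.15, adjusted p = 0.00702), and Gins2 (log2 change -0.43, SE 0.14, adjusted p = 0.027). The median log2 change of the 45 genes was -0.01, within a range of -0.61 to 0.55, and that of all genes was 0.08. Cdca7 had the highest value, 0.55, and missed the threshold (adjusted p = 0.0558). Without siMyc without dox replicate 1 the count was 1, as Rpa1 and Gins2 were no longer called (adjusted p up to 0.0634 and 0.188). Gins2 was also lost without siMyc with dox replicate 2 and with no filter on low values (adjusted p = 0.051), and Cdc7 under quantile normalization (adjusted p = 0.0645). The 3 arms share no libraries in these dox comparisons, and the plot of dox responses shows each gene in all of them.

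**Figure D1:**
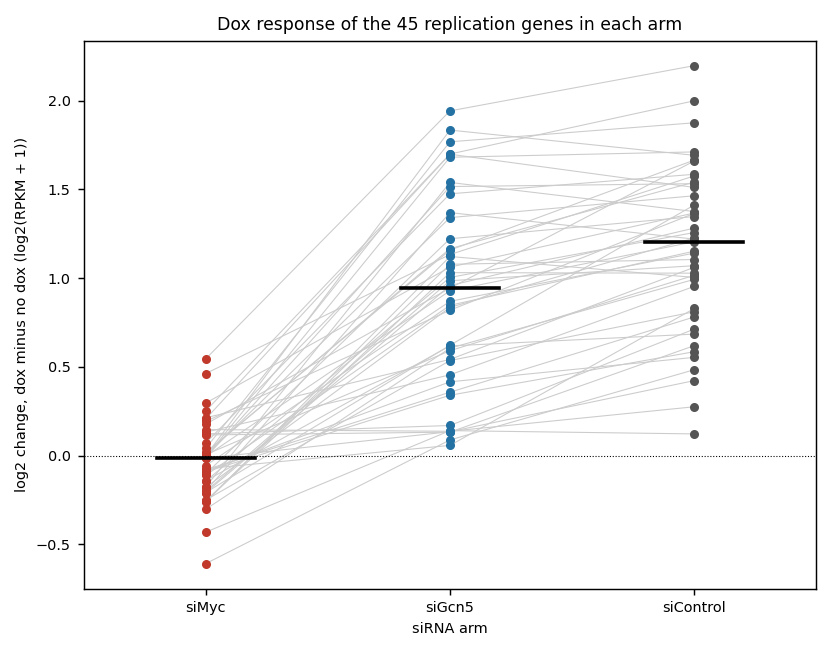
Log2 change with dox (log2(RPKM + 1), with dox minus without dox, y axis) of the 45 replication genes in siMyc, siGcn5 and siControl cells (x axis); each point is a gene, grey lines join the same gene and black bars are medians. The siMyc points lie around the zero line with a median of -0.01, and the medians of siGcn5 and siControl are 0.94 and 1.21.

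Set against siControl in the presence of dox, nearly all replication genes were lower with either siRNA. In siMyc 44 of 45 genes were lower (background 37.1%) and none was higher. The exception was the origin recognition subunit Orc4 (log2 change -0.19, SE 0.10, adjusted p = 0.109). The median log2 change was -1.48 over the 45 genes and 0.02 over all genes, and the median ratio of mean RPKM was 0.344. Cdca7 fell most (log2 change -2.73, SE 0.21, adjusted p = 1.29e-06), followed by Pold2 (log2 change -2.42, SE 0.18, adjusted p = 1.09e-06), Mcm5 (log2 change -2.13, SE 0.27, adjusted p = 4.3e-05), Mcm10 (log2 change -2.10, SE 0.29, adjusted p = 6.88e-05) and Mcm7 (log2 change -2.09, SE 0.20, adjusted p = 5.59e-06). The count was 44 under every other normalization, filter and pseudocount tried, and leaving out a library in turn left 43 or 44, with Gins2 lost without siMyc with dox replicate 2 (adjusted p = 0.0527).

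In siGcn5 with dox, 43 of 45 genes were lower (background 24.9%) and none was higher, with a median log2 change of -1.23 over the 45 genes and 0.05 over all genes and a median ratio of mean RPKM of 0.411. The largest falls were in Mcm5 (log2 change -1.76, SE 0.27, adjusted p = 0.000458), Mcm10 (log2 change -1.60, SE 0.29, adjusted p = 0.00106), Rfc5 (log2 change -1.59, SE 0.24, adjusted p = 0.000441), DNA ligase I, Lig1 (log2 change -1.54, SE 0.23, adjusted p = 0.000412), and the licensing factor Cdt1 (log2 change -1.53, SE 0.20, adjusted p = 0.000212). The ORC subunits Orc4 (log2 change 0.10, adjusted p = 0.432) and Orc5 (log2 change -0.27, adjusted p = 0.0837) were not called. Orc2, the only other ORC subunit among the 45, was called at -0.37 but lost that call with no filter on low values (adjusted p = 0.0578) and without siControl with dox replicate 2 or siGcn5 with dox replicate 1 (highest adjusted p 0.256), and Orc4 changed sign to -0.01 under median-ratio scaling. Of the ORC subunits outside the 45, Orc1 (log2 change -0.47, adjusted p = 0.0103) and Orc6 (log2 change -0.57, adjusted p = 0.00232) were lower, and Orc3 was not called (log2 change -0.16, adjusted p = 0.106).

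Without dox the siRNAs differed. In siMyc 4 of 45 genes were lower than in siControl, no larger a share than the background of 10.7%, and none was higher. The median log2 change was -0.14 over the 45 genes and 0.02 over all genes. The 4 were Cdca7 (log2 change -1.08, SE 0.21, adjusted p = 0.00558), Pold2 (log2 change -0.68, SE 0.18, adjusted p = 0.022), Cdc7 (log2 change -0.38, SE 0.11, adjusted p = 0.0331) and the GINS subunit Gins3 (log2 change -0.28, SE 0.09, adjusted p = 0.0458). None of these calls held through every removal of a library. The count was 0 without siControl without dox replicate 1, 2 without siControl without dox replicate 2, 1 without either siMyc library without dox, and 6 without either siGcn5 library with dox. With no filter on low values only Cdca7 was called. Cdca7 lost its call in 1 of the left-out cases, at adjusted p = 0.0512.

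In siGcn5 without dox, 38 of 45 genes were lower than in siControl (background 20.4%) and none was higher. The median log2 change was -0.94 over the 45 genes and 0.11 over all genes, and the median ratio of mean RPKM was 0.480. On the log2(RPKM + 1) scale Mcm5 fell most (log2 change -1.90, SE 0.27, adjusted p = 0.000247), followed by the primase catalytic subunit Prim1 (log2 change -1.60, SE 0.16, adjusted p = 3.45e-05), Mcm3 (log2 change -1.57, SE 0.22, adjusted p = 0.000239), Rfc5 (log2 change -1.56, SE 0.24, adjusted p = 0.000413) and Cdt1 (log2 change -1.51, SE 0.20, adjusted p = 0.000177). By the ratio of mean RPKM the order differed, with Mcm10 lowest at 0.219 and Mcm5 at 0.235. The 7 genes that were not called were Orc2, Orc4, Orc5, Pold3, Rfc3, Rpa2 and Rpa3, at log2 changes of 0.01, 0.23, 0.25, -0.25, -0.27, -0.39 and 0.05. Under median-ratio scaling Orc2 and Rpa3 were at -0.13 and -0.09 and the median of all genes at 0.00. In all, 29 calls were left without siControl without dox replicate 1, and Dscc1 and Rfc4 lost theirs with no filter on low values. Removal of single libraries took the calls of Cdca7, Dscc1, Fen1, Gmnn, Pola2, Rfc1, Rfc4, Rpa1 and Tipin. Dscc1 was also not called under quantile normalization (limma, adjusted p = 0.0572), nor Rfc4 with limma voom on the recovered reads (adjusted p = 0.0537). The siMyc and siGcn5 comparisons share the siControl libraries, so their values are given side by side in the plot of siRNA effects and are not correlated with each other.

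**Figure D2:**
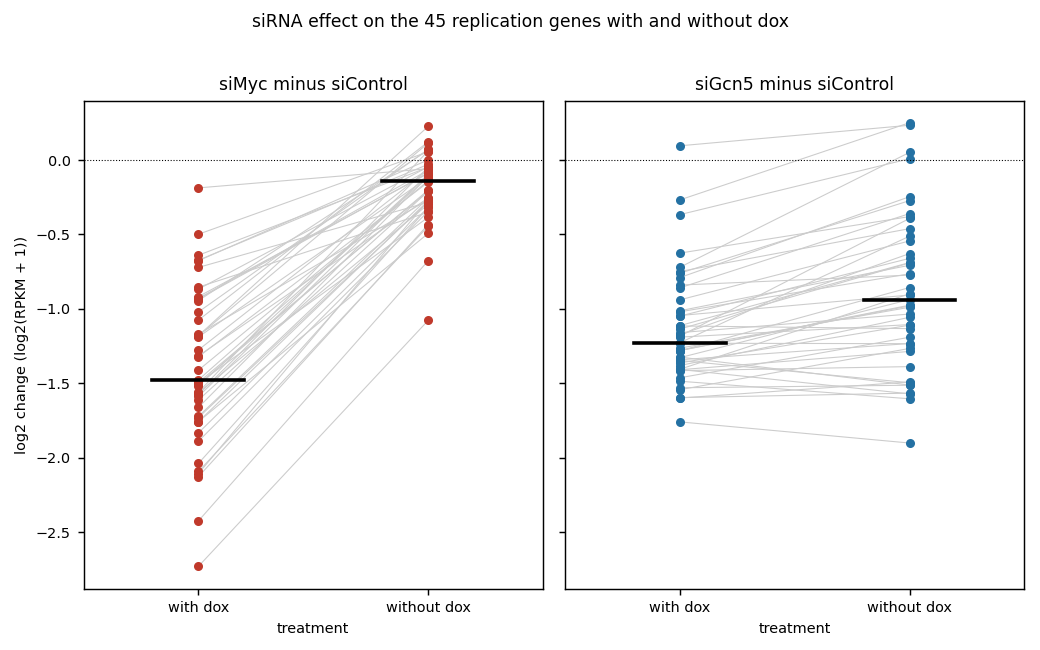
Log2 change against siControl (log2(RPKM + 1), y axis) of the 45 replication genes in siMyc (left panel) and siGcn5 (right panel), with dox and without dox (x axis); each point is a gene, grey lines join the same gene and black bars are medians. The siMyc medians are -1.48 with dox and -0.14 without it, and the siGcn5 medians are -1.23 and -0.94.

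The difference between the dox responses was tested as an interaction. For siMyc, the dox response was below that of siControl for 42 of 45 genes (background 29.3%), with a median difference of -1.27 on the log2 scale over the 45 genes and -0.03 over all genes. The largest differences were in Mcm10 (log2 difference -1.83, SE 0.41, adjusted p = 0.00368), Pold2 (log2 difference -1.75, SE 0.25, adjusted p = 0.000365) and Rfc5 (log2 difference -1.72, SE 0.35, adjusted p = 0.00219), and Orc4, Rfc3 and Dscc1 were not called (adjusted p = 0.457, 0.0549 and 0.05). Leaving out a library in turn left 38 to 44 calls, with Gins2, Gins3, Pold3 and Rfc2 losing theirs in at least 1 case, and Gins2 also under either scaling and with no filter on low values.

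For siGcn5, the dox response was below that of siControl for 4 of 45 genes (background 14.5%), with a median difference of -0.27 over the 45 genes and -0.08 over all genes. The 4 were Rpa3, the small subunit of the single-strand binding protein (log2 difference -0.77, SE 0.18, adjusted p = 0.0145), Pold3 (log2 difference -0.54, SE 0.17, adjusted p = 0.0381), Orc5 (log2 difference -0.52, SE 0.17, adjusted p = 0.0496) and the clamp loader subunit Rfc1 (log2 difference -0.50, SE 0.13, adjusted p = 0.0227). This count rested on single libraries. It was 16 without siGcn5 with dox replicate 2 and 2 without siControl without dox replicate 1. It was 1 without siControl without dox replicate 2, siControl with dox replicate 2, siGcn5 with dox replicate 1 or either siGcn5 library without dox, and no single call held in all these cases. Only Rpa3 was called under each of the other settings tried: Orc5 was lost under median-ratio scaling and quantile normalization, with no filter and with a pseudocount of 0.1, Pold3 with no filter, and Rfc1 under quantile normalization. Both interactions use the same siControl dox response.

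With dox, siMyc and siGcn5 were also compared directly, in a comparison that does not use the siControl libraries. In siMyc 3 genes were higher (background 27.3%) and 11 lower (background 38.6%) than in siGcn5, neither a larger share than the background. The median log2 difference was -0.21 over the 45 genes and -0.09 over all genes. The higher genes were Gins2 (log2 difference 0.62, SE 0.14, adjusted p = 0.00259), the clamp loader subunit Rfc2 (log2 difference 0.37, SE 0.14, adjusted p = 0.0361) and Pole2, a subunit of polymerase epsilon (log2 difference 0.34, SE 0.10, adjusted p = 0.0126). The lower genes were led by Cdca7 (log2 difference -1.71, SE 0.21, adjusted p = 4.45e-05), Orc2 (log2 difference -1.21, SE 0.13, adjusted p = 1.58e-05), Pold2 (log2 difference -1.14, SE 0.18, adjusted p = 0.000255), the fork protection factor Tipin (log2 difference -0.74, SE 0.19, adjusted p = 0.00594) and Mcm7 (log2 difference -0.69, SE 0.20, adjusted p = 0.0116). The count of 14 was 7 without siMyc with dox replicate 1, 9 without siMyc with dox replicate 2 or under median-ratio scaling, and 26 without siGcn5 with dox replicate 1. Of the 14 calls, those of Cdc7, Mcm7, Orc4, Pola1, Pole2, Rfc2, Rfc4, Rpa3 and Tipin did not hold through every removal of a library. Cdc7, Orc4, Pola1, Rfc4 and Rpa3 were also not called under median-ratio scaling. Rfc2 was not called with no filter on low values (adjusted p = 0.0661).

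A comparison of siMyc with siGcn5 without dox was added after the values had been seen. There 32 genes were higher in siMyc (background 22.2%) and 2 were lower (background 36.5%), Orc5 (log2 difference -0.34) and Orc4 (log2 difference -0.29), with a median log2 difference of 0.77 over the 45 genes and -0.11 over all genes. The range over left-out libraries was 28 to 36 calls, and the calls of Orc4 and Orc5 were among those lost, as they were under median-ratio scaling (adjusted p = 0.144 and 0.164) and quantile normalization (adjusted p = 0.179 and 0.161).

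The summed RPKM of the 45 genes shows the same order in single libraries. It was 524 and 563 in siMyc, 535 and 783 in siGcn5 and 1442 and 1567 in siControl with dox, against 618 and 511 in siMyc, 312 and 360 in siGcn5 and 664 and 594 in siControl without dox. Both siControl libraries with dox were above all others, and both siGcn5 libraries without dox were below all others. Replicates of siGcn5 with dox stood furthest apart, with 43 of 45 genes higher in replicate 2 and a median ratio of replicate 2 to replicate 1 of 1.54, against 1.23 in siGcn5 without dox and 0.832 to 1.09 in the other 4 groups. In these bulk libraries fewer cycling cells and less RNA of these genes per cell cannot be told apart.

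**Figure D3:**
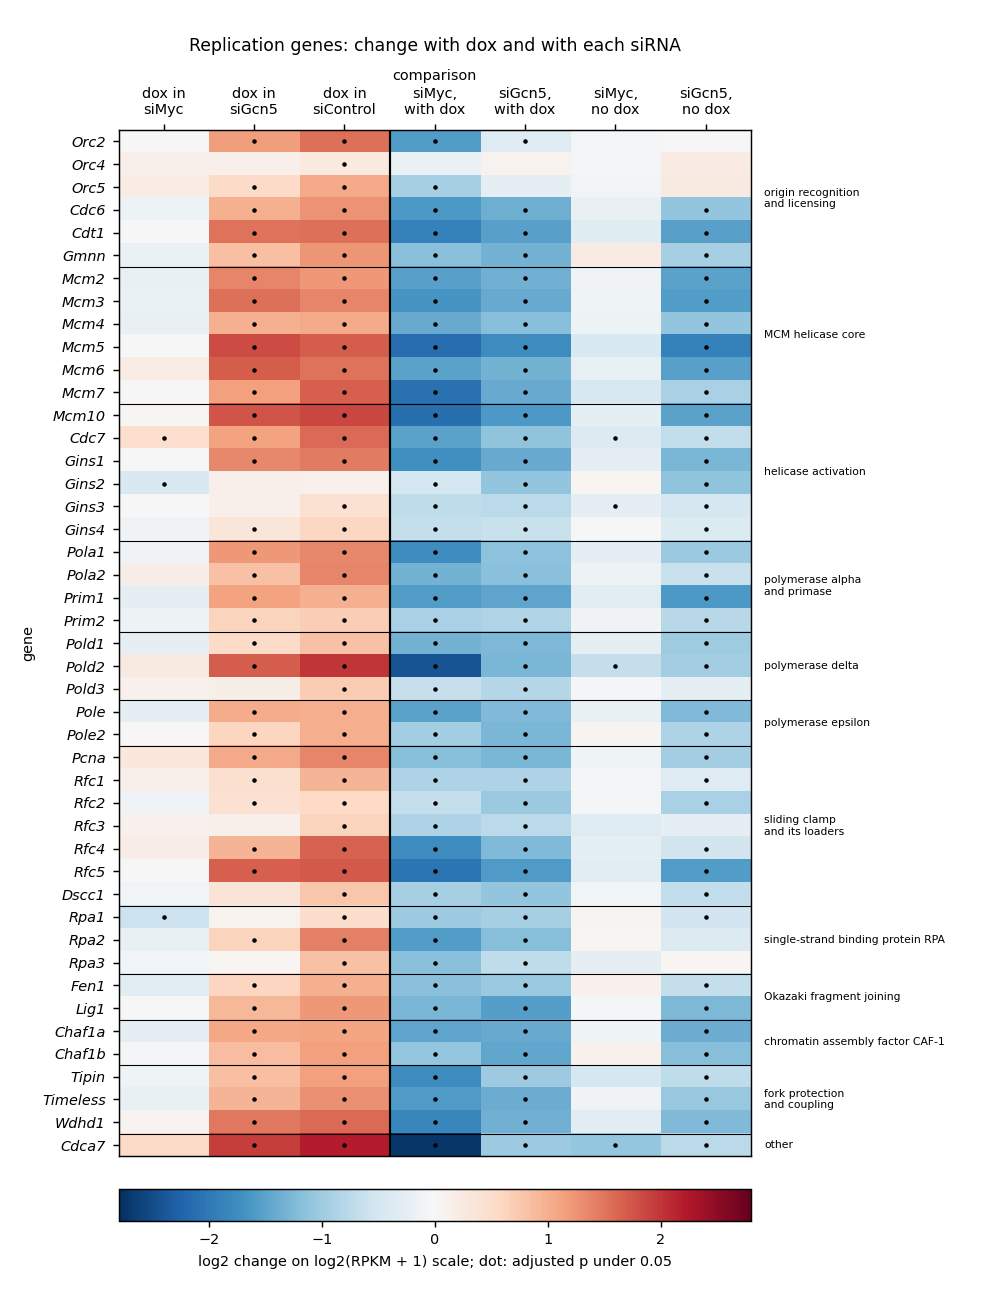
Log2 change (log2(RPKM + 1), colour scale) of each of the 45 replication genes (rows, grouped by role) with dox in siMyc, siGcn5 and siControl (left 3 columns) and of siMyc and siGcn5 against siControl with dox and without dox (right 4 columns); a dot marks an adjusted p under 0.05. The dox column of siMyc holds 3 dots, those of siGcn5 and siControl hold 37 and 44, and the siRNA columns hold 44 and 43 with dox and 4 and 38 without dox.

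Among the origin recognition and licensing genes, the 3 ORC subunits and the loading factors differed. Orc2 was at 10.9 and 13.1 RPKM in siMyc, 26.9 and 31.3 in siGcn5 and 33.4 and 42.5 in siControl with dox, against 11.4 and 12.3 in siMyc, 11.7 and 13.1 in siGcn5 and 12.2 and 12.4 RPKM in siControl without dox. The siMyc libraries with dox lay at the level of the groups without dox, while siGcn5 with dox lay well above it and below siControl with dox. Orc4 was at 12.9 and 12.8 RPKM in siMyc, 16.5 and 15.3 in siGcn5 and 14.1 and 15.5 in siControl with dox, against 10.3 and 12.9 in siMyc, 14.1 and 14.5 in siGcn5 and 11.8 and 12.3 RPKM in siControl without dox. Its libraries stayed in a narrow band, with siGcn5 above siControl without dox and overlapping it with dox. Orc5 was at 8.65 and 10.5 RPKM in siMyc, 14.8 and 16.7 in siGcn5 and 17.6 and 20.7 in siControl with dox, against 7.34 and 8.91 in siMyc, 10.3 and 10.6 in siGcn5 and 8.21 and 9.10 RPKM in siControl without dox. As for Orc2, the siGcn5 libraries with dox stood between siMyc and siControl without overlap.

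The loading factors Cdc6 and Cdt1 were lower in siGcn5 than in siControl on either side of dox. Cdc6 was at 1.81 and 2.04 RPKM in siMyc, 1.93 and 3.11 in siGcn5 and 7.91 and 7.93 in siControl with dox, against 2.76 and 1.76 in siMyc, 0.630 and 0.837 in siGcn5 and 3.39 and 2.17 RPKM in siControl without dox. Cdt1 was at 5.27 and 6.39 RPKM in siMyc, 6.18 and 9.63 in siGcn5 and 25.2 and 23.2 in siControl with dox, against 7.05 and 4.85 in siMyc, 1.85 and 2.28 in siGcn5 and 8.79 and 6.75 RPKM in siControl without dox. For both genes the siGcn5 libraries without dox were the lowest of all and the siControl libraries with dox the highest, with no overlap, and siMyc without dox overlapped siControl without dox. Gmnn, the inhibitor of Cdt1, was at 11.7 and 12.8 RPKM in siMyc, 7.92 and 15.1 in siGcn5 and 27.3 and 30.9 in siControl with dox, against 15.6 and 12.6 in siMyc, 4.62 and 7.04 in siGcn5 and 12.7 and 11.1 RPKM in siControl without dox. The ratio of Cdt1 to Gmnn RPKM was 0.449 and 0.497 in siMyc, 0.781 and 0.637 in siGcn5 and 0.922 and 0.751 in siControl with dox, against 0.453 and 0.384 in siMyc, 0.400 and 0.324 in siGcn5 and 0.694 and 0.608 in siControl without dox. The siMyc libraries were below the siControl libraries in this ratio on either side of dox. The siGcn5 libraries were below siControl without dox and overlapped it with dox.

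The 6 subunits of the MCM2-7 helicase, which form a ring in equal numbers, were all higher with dox in siControl and siGcn5 and none was called in siMyc. Mcm6, the subunit with the highest mean, was at 28.9 and 30.9 RPKM in siMyc, 27.8 and 41.7 in siGcn5 and 82.0 and 91.8 in siControl with dox, against 28.4 and 23.4 in siMyc, 8.47 and 11.3 in siGcn5 and 32.1 and 27.7 RPKM in siControl without dox. Mcm5 was at 13.9 and 17.7 RPKM in siMyc, 14.6 and 28.8 in siGcn5 and 68.4 and 75.7 in siControl with dox, against 18.9 and 13.0 in siMyc, 4.41 and 5.76 in siGcn5 and 23.8 and 19.6 RPKM in siControl without dox. For both subunits siControl with dox was above every other library and siGcn5 without dox below every other, and for Mcm5 the siMyc and siGcn5 libraries with dox overlapped. Mcm7 was at 18.8 and 23.8 RPKM in siMyc, 27.6 and 43.5 in siGcn5 and 89.4 and 97.7 in siControl with dox, against 24.1 and 18.1 in siMyc, 14.1 and 15.9 in siGcn5 and 31.0 and 26.7 RPKM in siControl without dox. Unlike for Mcm5, both siGcn5 libraries with dox were above both siMyc libraries with dox.

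RPKM is per length, so the 6 subunits can be set beside each other within a library. The highest subunit over the lowest was 2.08 and 1.79 in siMyc, 1.90 and 1.84 in siGcn5 and 2.02 and 1.97 in siControl with dox, against 1.50 and 1.79 in siMyc, 3.20 and 2.76 in siGcn5 and 1.41 and 1.45 in siControl without dox. The subunits were thus most even in siControl and least even in siGcn5, both without dox. In the siGcn5 libraries without dox the lowest subunit was Mcm5, at 4.41 and 5.76 RPKM, and the highest was Mcm7, at 14.1 and 15.9 RPKM. Mcm2, Mcm3 and Mcm4 fell by 1.52, 1.66 and 1.41 on the log2 scale in siMyc with dox and by 1.35, 1.41 and 1.19 in siGcn5 with dox.

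**Figure D4:**
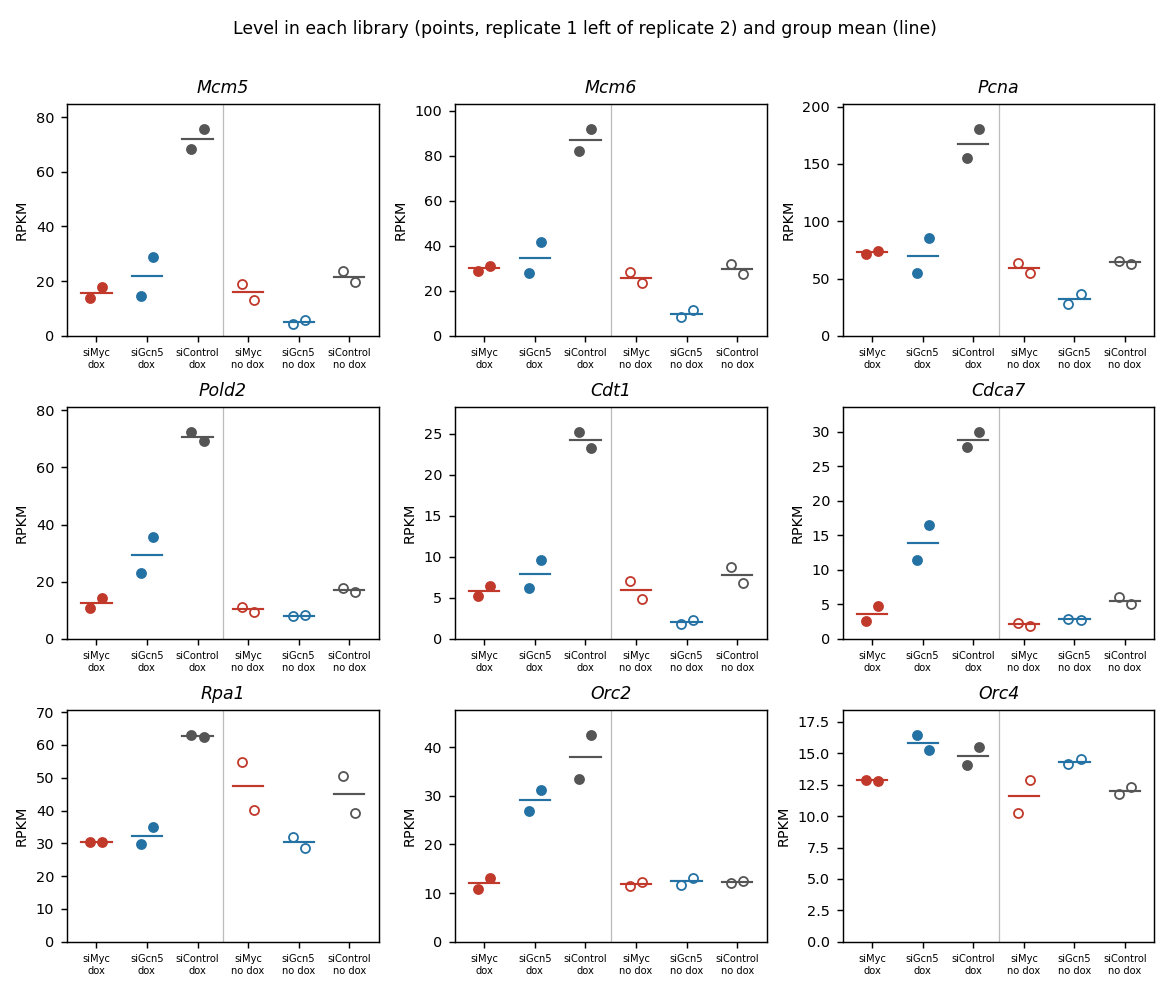
RPKM (y axis) of Mcm5, Mcm6, Pcna, Pold2, Cdt1, Cdca7, Rpa1, Orc2 and Orc4 in each library of the 6 groups (x axis), with dox (filled) and without dox (open); points are libraries and lines are group means, n = 2. Both siControl libraries with dox lie above all others for every gene shown except Orc4, and siGcn5 with dox stands between siMyc and siControl for Orc2, Pold2 and Cdca7.

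Of the genes that activate the helicase, Mcm10 had the widest range. It was at 3.09 and 4.26 RPKM in siMyc, 3.83 and 8.01 in siGcn5 and 17.5 and 20.5 in siControl with dox, against 4.11 and 2.97 in siMyc, 0.570 and 1.39 in siGcn5 and 5.03 and 3.91 RPKM in siControl without dox. The replicates of siGcn5 differed more than those of the other arms, with replicate 2 the higher on either side of dox. Cdc7 was at 3.36 and 3.18 RPKM in siMyc, 4.32 and 4.68 in siGcn5 and 11.4 and 10.7 in siControl with dox, against 2.16 and 2.04 in siMyc, 1.58 and 1.43 in siGcn5 and 3.58 and 2.57 RPKM in siControl without dox. In each arm both libraries with dox were above both without it.

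The 4 GINS subunits form 1 complex but did not share 1 pattern. Gins2 was at 20.6 and 18.3 RPKM in siMyc, 10.7 and 14.2 in siGcn5 and 28.4 and 27.3 in siControl with dox, against 29.2 and 24.1 in siMyc, 10.2 and 12.0 in siGcn5 and 27.1 and 24.0 RPKM in siControl without dox. Its siControl libraries with dox were above those without it by a margin that was not called, its siMyc libraries were lower with dox than without it, and both siGcn5 groups were below all other libraries. Gins4, with the highest mean of the helicase activation genes, was at 19.6 and 19.4 RPKM in siMyc, 18.4 and 22.1 in siGcn5 and 30.8 and 32.6 in siControl with dox, against 21.9 and 19.7 in siMyc, 15.1 and 16.4 in siGcn5 and 20.2 and 21.3 RPKM in siControl without dox. For Gins4 the siControl libraries with dox stood above a narrow band of all others. Gins1 was at 3.54 and 3.58 RPKM in siMyc, 3.60 and 5.98 in siGcn5 and 13.2 and 14.9 in siControl with dox, against 3.81 and 3.33 in siMyc, 1.15 and 1.33 in siGcn5 and 5.48 and 3.58 RPKM in siControl without dox. With dox in siControl, Gins1 rose by a log2 change of 1.46, Gins4 by 0.59 and Gins3 by 0.42, while Gins2 was not called.

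Polymerase alpha and primase, which lay down primers, were all higher with dox in siControl and siGcn5 and lower under siMyc with dox and under siGcn5 with and without dox. Prim2, the regulatory primase subunit and the member with the highest mean, was at 9.71 and 10.7 RPKM in siMyc, 9.63 and 12.2 in siGcn5 and 20.0 and 20.3 in siControl with dox, against 11.8 and 11.0 in siMyc, 6.50 and 6.93 in siGcn5 and 12.2 and 12.2 RPKM in siControl without dox. Prim1 was at 8.02 and 7.67 RPKM in siMyc, 6.92 and 10.0 in siGcn5 and 24.1 and 26.2 in siControl with dox, against 10.2 and 9.03 in siMyc, 2.80 and 3.84 in siGcn5 and 13.1 and 11.1 RPKM in siControl without dox. The siGcn5 libraries without dox were the lowest for Prim1, the second largest fall on the log2(RPKM + 1) scale in that comparison. The polymerase alpha subunits Pola1 and Pola2 fell by 1.73 and 1.32 on the log2 scale in siMyc with dox and by 1.16 and 1.17 in siGcn5 with dox.

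Within polymerase delta the subunits moved by different amounts. Pold2 was at 10.8 and 14.2 RPKM in siMyc, 22.9 and 35.5 in siGcn5 and 72.4 and 69.1 in siControl with dox, against 11.2 and 9.33 in siMyc, 7.87 and 8.35 in siGcn5 and 17.7 and 16.3 RPKM in siControl without dox. With dox the 3 arms did not overlap, with siMyc lowest, and without dox both siRNA arms were below both siControl libraries. Pold1, the catalytic subunit, was at 6.61 and 5.84 RPKM in siMyc, 5.55 and 7.55 in siGcn5 and 17.8 and 16.2 in siControl with dox, against 8.93 and 6.42 in siMyc, 4.35 and 3.98 in siGcn5 and 10.7 and 7.95 RPKM in siControl without dox. Pold3, an accessory subunit, was at 4.13 and 4.36 RPKM in siMyc, 3.78 and 3.67 in siGcn5 and 7.68 and 6.69 in siControl with dox, against 4.39 and 3.31 in siMyc, 3.31 and 3.09 in siGcn5 and 4.34 and 3.65 RPKM in siControl without dox. Only the siControl libraries with dox stood apart for Pold3. Pold4, the smallest subunit and not one of the 45 genes, went the other way: 27.2 and 26.2 RPKM in siMyc, 26.7 and 23.5 in siGcn5 and 13.3 and 11.0 in siControl with dox, against 22.9 and 22.0 in siMyc, 38.4 and 39.5 in siGcn5 and 21.4 and 22.2 RPKM in siControl without dox.

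Polymerase epsilon was represented by its catalytic subunit Pole and by Pole2. Pole2, the higher of the pair, was at 6.69 and 6.57 RPKM in siMyc, 4.63 and 5.48 in siGcn5 and 13.4 and 13.9 in siControl with dox, against 7.18 and 6.05 in siMyc, 2.95 and 3.07 in siGcn5 and 6.63 and 5.91 RPKM in siControl without dox. It is 1 of the 3 genes that were higher in siMyc than in siGcn5 with dox, and in that contrast the libraries did not overlap. Its call there did not hold through every removal of a library. Pole fell by 1.49 in siMyc with dox, by 1.23 in siGcn5 with dox and by 1.23 in siGcn5 without dox on the log2 scale.

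PCNA, the sliding clamp that tethers the polymerases, was the most abundant of the 45 genes per length in 11 of 12 libraries. Pcna was at 71.5 and 74.2 RPKM in siMyc, 54.5 and 85.6 in siGcn5 and 155 and 180 in siControl with dox, against 63.5 and 55.1 in siMyc, 28.1 and 36.8 in siGcn5 and 65.5 and 63.0 RPKM in siControl without dox. Both siControl libraries with dox were the highest and both siGcn5 libraries without dox the lowest. Mouse has a processed Pcna pseudogene, and how reads matching both were counted is not given in the sources used here, so its level is uncertain to that extent.

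The clamp loader genes spread from Rfc5, among the strongest responders, to Rfc2 and Rfc3. Rfc5 was at 8.01 and 10.7 RPKM in siMyc, 9.37 and 17.7 in siGcn5 and 38.7 and 43.5 in siControl with dox, against 10.1 and 8.54 in siMyc, 2.75 and 4.03 in siGcn5 and 12.5 and 11.3 RPKM in siControl without dox. Rfc3 was at 11.9 and 13.4 RPKM in siMyc, 11.1 and 16.6 in siGcn5 and 22.9 and 24.5 in siControl with dox, against 12.0 and 11.2 in siMyc, 12.1 and 12.5 in siGcn5 and 14.9 and 15.2 RPKM in siControl without dox. For Rfc3 only the siControl libraries with dox stood apart, and its siGcn5 libraries with dox lay on either side of those without it. Rfc2, the subunit with the second highest mean of the group after Pcna, was at 23.3 and 21.8 RPKM in siMyc, 14.3 and 20.6 in siGcn5 and 37.6 and 35.5 in siControl with dox, against 25.9 and 22.4 in siMyc, 12.3 and 13.0 in siGcn5 and 25.8 and 23.4 RPKM in siControl without dox. Its siMyc libraries with dox were above both siGcn5 libraries with dox and below siControl with dox. Dscc1, part of an alternative loader, had the lowest level of the 45 genes in every library, at 1.00 and 1.59 RPKM in siMyc, 0.519 and 1.65 in siGcn5 and 2.98 and 3.73 in siControl with dox, against 1.67 and 1.17 in siMyc, 0.444 and 0.699 in siGcn5 and 1.72 and 1.34 RPKM in siControl without dox. At these levels the log2(RPKM + 1) scale compresses its changes.

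The single-strand binding protein RPA is also used in DNA repair outside S phase. Rpa1 was at 30.6 and 30.3 RPKM in siMyc, 29.8 and 34.9 in siGcn5 and 63.0 and 62.5 in siControl with dox, against 54.7 and 40.2 in siMyc, 32.1 and 28.6 in siGcn5 and 50.5 and 39.4 RPKM in siControl without dox. The siMyc libraries with dox were below those without it, and the siGcn5 libraries overlapped between the treatments. Rpa3 was at 12.1 and 11.5 RPKM in siMyc, 15.6 and 17.5 in siGcn5 and 24.2 and 31.9 in siControl with dox, against 12.4 and 12.6 in siMyc, 14.2 and 17.6 in siGcn5 and 14.8 and 15.6 RPKM in siControl without dox. Its siGcn5 libraries overlapped between the treatments, whereas its siControl libraries did not, and this is the largest of the 4 called interactions of siGcn5 with dox. Rpa2 was at 9.30 and 10.6 RPKM in siMyc, 10.2 and 17.0 in siGcn5 and 29.5 and 33.1 in siControl with dox, against 12.9 and 10.5 in siMyc, 7.14 and 9.45 in siGcn5 and 10.8 and 11.4 RPKM in siControl without dox. It rose by a log2 change of 1.41 with dox in siControl, the largest rise of the 3 subunits.

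The flap endonuclease Fen1 and Lig1, which finish lagging-strand fragments, and the CAF-1 subunits Chaf1a and Chaf1b, which deposit histones behind the fork, were all higher with dox in siControl and siGcn5 and lower in siMyc with dox and in siGcn5 with and without dox. Lig1 was at 13.4 and 13.9 RPKM in siMyc, 8.12 and 15.2 in siGcn5 and 32.8 and 36.0 in siControl with dox, against 16.1 and 11.5 in siMyc, 4.68 and 6.17 in siGcn5 and 15.0 and 13.7 RPKM in siControl without dox. Chaf1a was at 8.73 and 8.85 RPKM in siMyc, 6.85 and 12.3 in siGcn5 and 26.0 and 26.5 in siControl with dox, against 12.3 and 9.25 in siMyc, 3.18 and 4.61 in siGcn5 and 12.8 and 10.6 RPKM in siControl without dox. For both genes the siMyc and siControl libraries without dox overlapped, and the siGcn5 libraries without dox were the lowest. Fen1 and Chaf1b rose by log2 changes of 0.99 and 1.14 with dox in siControl and fell by 1.18 and 1.07 in siMyc with dox and by 1.05 and 1.46 in siGcn5 with dox.

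Tipin and Timeless are partners that protect the fork, and Wdhd1 couples the helicase to polymerase alpha; all 3 were lower under siMyc with dox and under siGcn5 with and without dox. Tipin was at 11.2 and 15.4 RPKM in siMyc, 18.3 and 28.1 in siGcn5 and 43.5 and 50.3 in siControl with dox, against 14.2 and 14.4 in siMyc, 10.8 and 13.7 in siGcn5 and 21.0 and 20.1 RPKM in siControl without dox. With dox its 3 arms did not overlap. Timeless and Wdhd1 fell by 1.59 and 1.83 on the log2 scale in siMyc with dox and by 1.38 and 1.34 in siGcn5 with dox, and their siMyc and siGcn5 libraries with dox were not told apart in the direct comparison (adjusted p = 0.409 and 0.0755).

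On the log2(RPKM + 1) scale, Cdca7 had the largest change of the 45 genes in 5 of the comparisons above. By the ratio of mean RPKM, Mcm10 rose more than Cdca7 with dox in siGcn5, 6.04 against 4.92. Cdca7 was at 2.57 and 4.69 RPKM in siMyc, 11.4 and 16.5 in siGcn5 and 27.8 and 30.0 in siControl with dox, against 2.28 and 1.91 in siMyc, 2.89 and 2.78 in siGcn5 and 6.08 and 4.99 RPKM in siControl without dox. With dox the 3 arms were separate, with siMyc lowest, and without dox siMyc and siGcn5 were both below siControl. The gene is known as a Myc target in human cells.

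Outside the 45, a further list of 42 replication genes (origin firing factors, checkpoint and S-phase cyclin genes, histone chaperones and DNA methylation maintenance factors) was tested in the same fit. With dox in siControl 38 rose (background 46.1%) and 2 fell, with a median log2 change of 0.86. The rises were led by the histone chaperone Nasp (1.68), the nuclease and helicase Dna2 (1.63) and the replication timing factor Rif1 (1.58), while Pold4 (-0.80) and the transcription factor E2f1 (-0.45) fell. In siMyc with dox 37 were lower (background 37.1%) and 1 higher than in siControl, with a median of -1.13. Nasp (-2.08), Uhrf1, which recruits the maintenance DNA methyltransferase (-1.95), and the remodeller Hells (-1.89) led the falls, and Pold4 rose (1.08). In siGcn5 with dox 35 were lower (background 24.9%) and 2 higher, with a median of -0.88. The falls were led by Uhrf1 (-1.80), the topoisomerase Top2a (-1.65) and the histone chaperone Asf1b (-1.57). Pold4 (0.99) and Pole4, a small subunit of polymerase epsilon (0.27), were higher.

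Without dox, 2 of the 42 genes were lower in siMyc, no larger a share than the background of 10.7%, with a median of -0.10. They were cyclin E1, Ccne1 (-0.57), and the helicase-related Mcm8 (-0.41). In siGcn5 without dox 26 were lower (background 20.4%) and 3 higher, with a median of -0.64. Top2a (-1.96), Uhrf1 (-1.85) and cyclin A2, Ccna2 (-1.82), led the falls. The phosphatase gene Cdc25a (0.83), Pold4 (0.81) and Pole4 (0.37) were higher. In siMyc cells 2 of the 42 rose (background 28.9%) and 3 fell (background 15.9%) with dox. In siGcn5 cells 35 rose (background 36.0%) and 2 fell. For the interactions, 36 were lower (background 29.3%) and 1 higher for siMyc. For siGcn5 5 were lower, no larger a share than the background of 14.5%, and none was higher.

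Other parts of the cell cycle moved beside the replication genes. Of 30 mitosis genes, 23 were higher with dox in siControl (background 46.1%) and 30 in siGcn5 (background 36.0%). In siMyc 1 was higher (background 28.9%) and 1 lower (background 15.9%). All 30 were lower than in siControl in siMyc with dox, siGcn5 with dox and siGcn5 without dox (backgrounds 37.1%, 24.9% and 20.4%). The medians there were -1.44, -1.48 and -1.72. None was called in siMyc without dox (median -0.29, background 10.7% lower). Nor was any mitosis gene called between siMyc and siGcn5 with dox (median 0.01, background 27.3% higher and 38.6% lower). Their summed RPKM was 344 and 406 in siMyc, 251 and 459 in siGcn5 and 967 and 1111 in siControl with dox, against 415 and 432 in siMyc, 109 and 185 in siGcn5 and 561 and 529 in siControl without dox. As for the replication genes, the siGcn5 replicates differed. The ratio of replicate 2 to replicate 1 was 1.83 with dox and 1.70 without dox.

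Cell type markers also moved with the groups. All 15 fibroblast markers passed the filter. Between treatments, 14 were lower with dox in siControl, where 9751 of all 13175 genes tested were called in either direction. In siMyc 11 were lower (background 15.9%) and 2 higher (background 28.9%) with dox. In siGcn5 12 were lower and 2 higher (background 36.0% higher), and 7693 of all 13175 genes were called in either direction. Set against siControl with dox, 11 markers were higher in siMyc, where 9866 of all 13175 genes were called in either direction. In siGcn5 with dox 7 were higher and 1 lower (background 24.9% lower), and 7412 of all genes were called in either direction. Set against siControl without dox, 2 markers were lower in siMyc (background 10.7%). In siGcn5 without dox 9 markers were lower (background 20.4%) and 1 was higher. Their summed RPKM ran from 7816 to 7928 in siMyc, 5268 to 6115 in siGcn5 and 3797 to 4282 in siControl with dox, against 12264 to 12301 in siMyc, 9864 to 10318 in siGcn5 and 13172 to 13274 in siControl without dox. No fibroblast marker was at 0. Of 12 epithelial markers 8 passed the filter and 7 of them rose with dox in siControl (background 46.1%). All 8 rose with dox in siMyc (background 28.9%), and in siGcn5 7 rose (background 36.0%) and 1 fell. Set against siControl with dox, 4 were higher and 2 lower in siMyc (background 37.1% lower). In siGcn5 with dox 1 was higher and 2 were lower (background 24.9% lower). The markers thus went both ways, and their sum does not stand for each of them. The summed RPKM of the 12 was 1916 to 2053 in siMyc, 687 to 787 in siGcn5 and 702 to 798 in siControl with dox, against 7.44 to 7.76 in siMyc, 37.2 to 43.5 in siGcn5 and 6.97 to 7.82 in siControl without dox. Ocln was at 0 in siGcn5 without dox and Grhl2 in siControl without dox. The 10 pluripotency markers summed to at most 3.41 RPKM in any library, and Lin28a was at 0 in all 3 arms without dox. Endothelial (8 genes), blood (9), skeletal muscle (7), neural (6) and adipocyte (6) markers summed to at most 27.8, 9.50, 266, 191 and 48.7 RPKM, with the T-cell marker Cd3e at 0 in every group. Skeletal muscle markers summed to 258 to 266 RPKM in siMyc, 86.3 to 111 in siGcn5 and 41.2 to 62.1 in siControl with dox. Without dox they summed to 150 to 170, 116 to 132 and 97.5 to 125, in the same order. Neural markers summed to 163 to 191, 118 to 131 and 168 to 174 RPKM with dox in that order. Without dox they summed to 58.9 to 60.1, 23.9 to 26.2 and 56.0 to 59.2. The part of these shifts in the changes of the replication genes was not tested.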

How the data were processed

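Per the labels, total RNA of siRNA-transfected secondary fibroblasts was depleted of ribosomal RNA, made into stranded libraries and sequenced on an Illumina HiSeq. The authors deposited 1 table per library, in which 23284 gene symbols have an RPKM. The build was mm9, and Bowtie 0.12.8, TopHat2 2.0.9, affy, edgeR and HTSeq are the tools that the submitters' processing notes list. The sources used here do not say which of them made these values, nor the annotation, strand setting or filters. RPKM divides by library depth, so total RNA per cell is not measured.

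Reads were recovered from the steps of the RPKM values, whole within 0.05 read for 20787 of 20788 genes with a value, and gave 65.4 to 188 M gene reads per library. Genes were tested with limma (version 3.58.1, R version 4.3.3; trended prior variance) after taking log2 of RPKM plus a pseudocount of 1, over 13175 genes with RPKM of at least 1 in at least 2 of 12 libraries, with 1 term per group (6 residual and 4.17 prior degrees of freedom). P-values were two-sided, adjusted by Benjamini-Hochberg over all genes tested and called under 0.05. SE is limma's standard error of a log2 change. Alternatives were a pseudocount of 0.1, no filter, median-ratio scaling, quantile normalization, limma voom on the recovered reads, a replicate block and leaving out each library. Promoter windows and motifs were read from RefSeq (GRCm38.p6) by gene symbol and do not use the files' build.

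Members and lists were chosen with earlier results of these data known. Named with values were Myc and Kat2a, the member with the highest mean in each role group, up to 5 called members with the largest rise and fall per comparison (3 for interactions), members not called where there were 10 or fewer, and up to 3 other replication genes each way. Further genes given per library, and Orc1, Orc3 and Orc6, were chosen after their values were seen. Of 44 other replication genes named, 42 were found.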

Additional observations from a re-analysis of the deposited data

Results flagged for a closer look

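By the interaction term in limma, the dox response of siMyc cells was below that of siControl for 42 of the 45 replication genes. None was above it. Over all genes tested 29.3% were below it, and 7129 of 13175 were called in either direction. The 3 largest differences, on the log2 scale, were -1.83 in Mcm10, -1.75 in Pold2 and -1.72 in Rfc5, each with a smaller response in siMyc. The dox response of siGcn5 cells was below that of siControl for 4 of the 45 genes and above it for none. Over all genes tested 14.5% were below it, and 3409 of 13175 were called in either direction. The share of the replication genes is no larger, so the count is no result about them. Among the 4 genes the largest differences were -0.77 in Rpa3, -0.54 in Pold3 and -0.52 in Orc5, again with the smaller response in siGcn5. The siGcn5 count was 16 without siGcn5 with dox replicate 2 and 1 without any of 5 other libraries, so it rests on single libraries. The groups have 2 libraries each, so no single library was examined as standing apart within its group.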

How the results depend on the processing

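The counts of replication genes called stayed within 1.5 times their value under every normalization, filter, pseudocount and count-based alternative for the dox responses in siControl and siGcn5, both siRNAs with dox, siGcn5 without dox, the comparison of siMyc with siGcn5 without dox and the siMyc interaction. Elsewhere the count for dox in siMyc was 5 with a replicate block, that for siMyc without dox was 1 with no filter on low values, that for siMyc against siGcn5 with dox was 9 under median-ratio scaling, and that for the siGcn5 interaction was 2 with no filter, 2 under quantile normalization and 10 with the replicate block. Deviations of same-numbered libraries from their group means correlated at 0.0933 to 0.489, with 14 of 15 pairs of groups over 0.1. Same-numbered libraries thus deviated together in most pairs of groups, a hint from the data and not from the design; since no label ties them and not every pair of groups passed 0.1, the numbers were not used as pairs in the main test. The replicate block moved no other count of replication genes by more than 1.5 times. Limma voom on the recovered reads called 44 replication genes for dox in siControl, 44 for siMyc with dox and 43 for siGcn5 with dox. Leaving out a library in turn gave 1 to 4 calls for dox in siMyc, 0 to 6 for siMyc without dox, 7 to 26 for siMyc against siGcn5 with dox and 1 to 16 for the siGcn5 interaction. Over all genes it gave 1072 to 3481 calls for siMyc without dox and 1677 to 3960 for the siGcn5 interaction.

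Genes near 0 that were not called changed sign. For dox in siControl, Gins2 was at -0.029 under median-ratio scaling and -0.063 under quantile normalization. For dox in siGcn5, Rpa1 and Rpa3 were at -0.0316 and -0.059 under median-ratio scaling, and Gins3, Pold3 and Rpa3 at -0.086, -0.00656 and -0.060 under quantile normalization. For the same comparison, the range over left-out libraries was -0.050 to 0.33 for Gins2, -0.14 to 0.40 for Rfc3, -0.044 to 0.76 for Dscc1, -0.020 to 0.20 for Rpa1 and -0.090 to 0.21 for Rpa3. For siGcn5 without dox, Orc2 and Rpa3 were at -0.13 and -0.088 under median-ratio scaling and -0.14 and -0.085 under quantile normalization, with ranges over left-out libraries of -0.071 to 0.089 and -0.10 to 0.20. For siGcn5 with dox, Orc4 was at -0.0134 under median-ratio scaling, and for the siMyc interaction its range over left-out libraries was -0.28 to 0.022. The cause of these shifts was not tested. With 2 libraries per group a left-out library leaves a lone one, which is assumed to vary like the others.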
